A study of Mus musculus with 8 samples.

Results

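Axon guidance genes encode the cues and the receptors by which growing axons and migrating cells are attracted or repelled. They were examined here in mouse astrocytes, glial cells that support neurons. The genes were picked by symbol alone, as every row of the deposited expression table that names a class 3 to 7 semaphorin, a plexin, a neuropilin, an ephrin, an Eph receptor, a Slit, a Robo, a netrin or netrin-G, an Unc5 gene or Dcc. This gave 73 of the 21878 genes in the table. The symbol rule also took Unc50 and Unc5cl, which share letters with the netrin receptors and are not counted as receptors here. Polyadenylated RNA was sequenced from wild-type astrocytes of newborn C57BL/6 mice, with 4 untreated libraries and 4 treated with a cocktail of C1q, the first component of complement, and the cytokines tumor necrosis factor α and interleukin-1α. The cocktail served to bring about a reactive state marked by C3d, which is cleaved from complement C3. The sources used here give no dose, length of treatment or purity of the cultures, and all cells of a library were measured together.

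Guidance cues come in 4 classical families. Semaphorins signal through plexins, and the secreted class 3 members mostly need a neuropilin as co-receptor. Ephrins stay on the cell surface and bind Eph receptor tyrosine kinases on the neighbouring cell. Slits bind Robo receptors and repel, and netrins attract through Dcc or repel through Unc5 receptors. Astrocytes both make such cues and carry the receptors, and the families also act in blood vessels and immune cells.

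The netrin gene Ntn4 fell 4.58-fold and the plexin gene Plxnd1 rose 6.03-fold in mean FPKM, a fragment count divided by gene length and sequencing depth, in cocktail-treated cells. The semaphorin genes Sema4a and Sema3e moved in opposite directions, 7.04-fold up and 6.20-fold down. Both neuropilin genes and both tested Slit receptor genes rose, while 11 of 15 tested semaphorin genes fell. A gene was tested when at least 4 of the 8 libraries reached 1 FPKM, which 52 of the 73 guidance genes did. It was called when the two-sided adjusted p of limma on log2(FPKM + 1) was under 0.05. Of the 52, 16 were called higher and 27 lower and 9 were not called. Over all 11845 tested genes 67.7% were called, 26.6% higher and 41.1% lower, against 82.7%, 30.8% and 51.9% of the guidance genes. The median log2 change was -0.193 over the 52 guidance genes and -0.050 over all tested genes. At least a 2-fold change of mean FPKM together with a call was seen for 15 guidance genes, 28.8% of the 52, against 13.1% of all tested genes. Of the 15, 5 were higher and 10 lower, 9.62% and 19.2% of the 52, against 5.24% and 7.86% of all tested genes. Rises made up 39.3% of all calls and 37.2% of the guidance calls. Under median-ratio scaling these shares were 51.8% and 43.2%, and the log2 changes of the tested genes shifted by a median of 0.070. Of the 52 genes, 8 reached the filter in 1 group only (Epha5, Ephb1, Nrp2, Ntng1, Plxna4, Sema3e, Sema4a and Sema6b), so their difference is partly a condition of being tested.

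**Figure D1:**
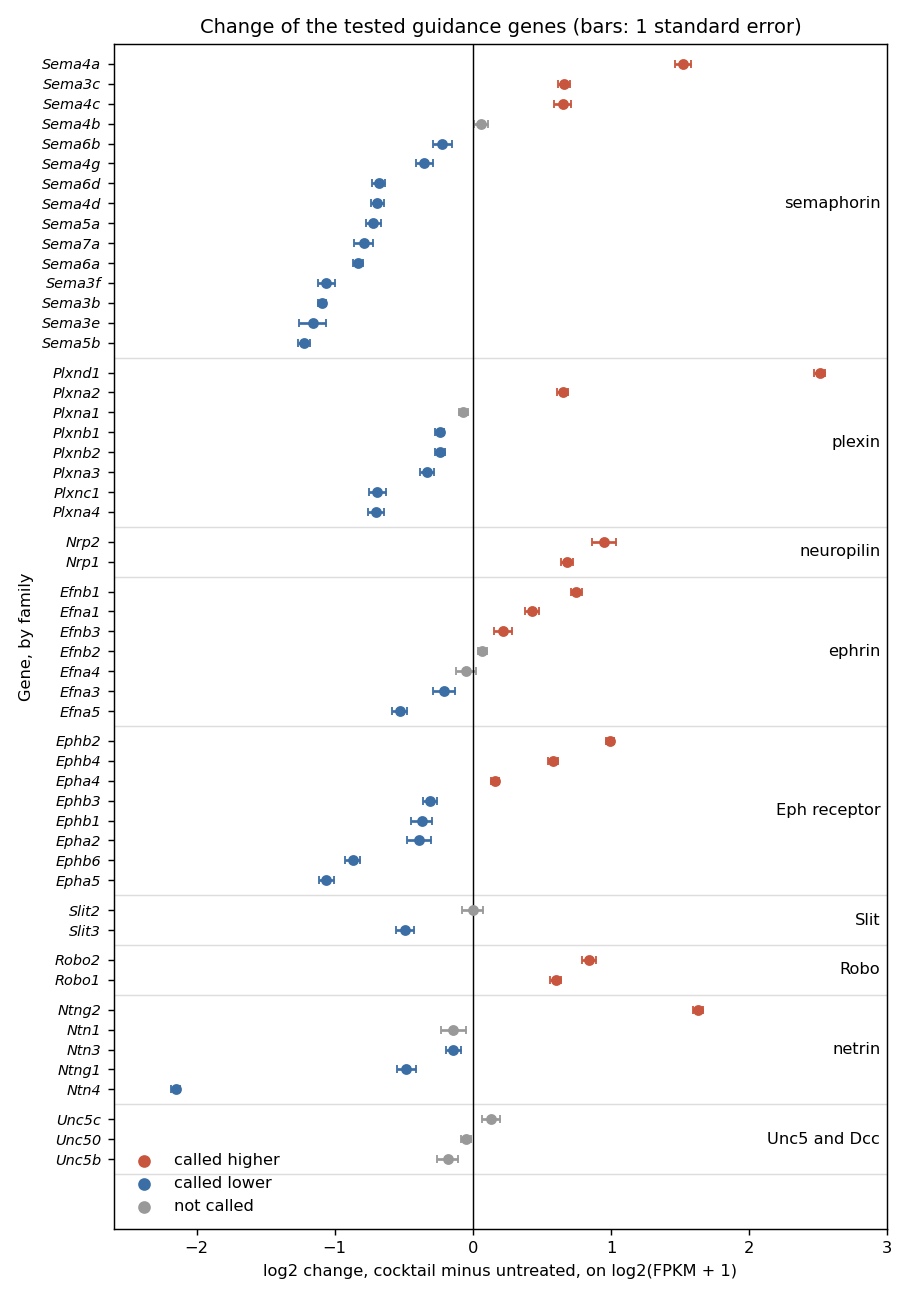
Log2 change on the log2(FPKM + 1) scale, cocktail minus untreated, for the 52 tested guidance genes by family. Points are limma estimates, bars are 1 standard error, and colour gives the call. Plxnd1 at 2.51 and Ntn4 at -2.15 are the extremes, and semaphorins lie mostly left of 0.

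Depth lay between 19195898 and 20640490 fragments per library. On the second principal component, which holds 2.11% of the variance, cocktail libraries 1 to 4 lay at -6.30, -7.57, 4.43 and 8.61, so that 1 and 2 differed from 3 and 4. Astrocyte markers were high in every library, with 12 genes summing to 1240 to 1387 FPKM in untreated and 976 to 1004 in cocktail libraries, and 9 of the 11 tested fell. The 10 microglial markers summed to 11.5 to 13.5 FPKM untreated and to 15.9, 16.6, 35.4 and 47.5 in cocktail libraries 1 to 4. All 5 that were tested rose, of which Itgam and Csf1r passed the filter only with cocktail libraries counted. Under the filter were Aif1 (means 0.299 untreated and 1.03 FPKM with cocktail), Cx3cr1 (0.412 and 0.667) and P2ry12 (0.0925 and 0.120). Also under it were Tmem119 (0.606 and 0.600) and Trem2 (0.573 and 0.789), and none of these was called without the filter. Mural cell markers summed to 558 to 628 and 123 to 138 FPKM, nearly all of it Acta2, and 3 of 3 tested fell. Neuron markers summed to 140 to 158 and 52.4 to 59.7 FPKM, mostly Stmn2. Of 4 tested neuron markers 2 fell and 1 rose, and Rbfox3, which defines mature neurons, stayed at or below 0.0488 FPKM. Markers of the oligodendrocyte lineage summed to 212 to 226 and 123 to 127 FPKM, mostly Olig1, with 4 of 6 tested lower, 1 higher and Mog at 0 in every library. Endothelial markers summed to 5.07 to 5.60 and 1.63 to 2.16 FPKM, with Kdr the 1 tested gene and lower, and Cldn5 at 0. Of 7 tested fibroblast and meningeal markers 5 rose and 2 fell, with sums of 114 to 137 and 104 to 130 FPKM. All 7 marker lists differed in mean log2(FPKM + 1) between groups (exact permutation test over 70 assignments, p = 0.0286, adjusted p = 0.029). This is the smallest p that the test can give, reached when the groups do not overlap. The groups did not overlap for 62.7% of all tested genes either. The mean rose for the microglial list and for the fibroblast and meningeal list, whose sums overlapped, and fell for the other lists. The part of these markers in the changes of the guidance genes was not tested. In such bulk samples fewer cells of a type and less RNA per cell cannot be told apart.

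The stretch of 250 bases before the start site is shown for 3 genes with large changes, Ntn4, Sema4a and Sema3e. The windows shown lie outside every annotated exon and outside the annotated gene itself. Those of Plxnd1, Ephb2 and Epha5 also lie outside exons, but inside the annotated gene. Sequences are from RefSeq for GRCm38.p6, written along the gene's strand, with matches to the motifs named after them in capitals. They are chr10:93640799-93641048 on the plus strand for Ntn4, chr3:88461183-88461432 on the minus strand for the first of 4 start sites of Sema4a, and chr5:14025026-14025275 on the plus strand for Sema3e.
Ntn4: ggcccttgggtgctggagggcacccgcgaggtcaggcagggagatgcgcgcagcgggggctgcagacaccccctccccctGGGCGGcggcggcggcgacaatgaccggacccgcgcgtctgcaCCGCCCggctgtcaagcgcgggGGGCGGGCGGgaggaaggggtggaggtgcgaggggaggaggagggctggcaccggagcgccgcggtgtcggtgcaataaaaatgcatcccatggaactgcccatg
Sema4a: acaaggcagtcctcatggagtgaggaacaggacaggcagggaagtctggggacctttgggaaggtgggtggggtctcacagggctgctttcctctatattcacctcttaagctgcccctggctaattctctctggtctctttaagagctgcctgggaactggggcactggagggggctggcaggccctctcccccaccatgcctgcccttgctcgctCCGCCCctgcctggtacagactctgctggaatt
Sema3e: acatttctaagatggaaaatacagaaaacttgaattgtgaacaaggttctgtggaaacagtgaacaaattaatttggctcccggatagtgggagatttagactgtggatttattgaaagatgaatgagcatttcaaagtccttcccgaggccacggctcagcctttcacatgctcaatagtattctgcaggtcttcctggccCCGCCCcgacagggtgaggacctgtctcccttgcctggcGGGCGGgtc

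Both strands of this window were searched for the NF-kB consensus, for the AP-1 motif TGANTCA, for the core of the interferon response element (GAAA, any 2 bases, GAAA) and for the GC box GGGCGG. Only GC boxes matched in the 3 windows, 4 in Ntn4 (of which 2 overlap), 1 in Sema4a and 2 in Sema3e. GC content was 73.2%, 59.6% and 48.0%, against a median of 52.4% over 32851 promoters. In all, 63 of the 73 guidance genes had a promoter in the table, with every start site of a gene searched. An NF-kB match was found for 1 of 15 genes called higher (Sema4c) and 2 of 23 called lower (Ephb1 and Plxna3), against 7.29% of 9545 tested genes. AP-1 matched in 1 of 15 and 2 of 23, against 5.25%. The interferon element matched in 0 of 15 and 2 of 23 (Plxnc1 and Sema6b), against 3.11%. GC boxes were found for 10 of 15 genes called higher and 21 of 23 called lower, against 65.59% of tested genes. A match describes letters in this window and does not show a bound site.

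Of the 5 tested netrins and netrin-Gs, 3 fell, 1 rose and 1 was not called. Ntn4 encodes a netrin of basement membranes that binds laminin. It stood at 116, 119, 114 and 109 FPKM in untreated libraries 1 to 4 and at 26.2, 24.6, 25.0 and 24.4 in cocktail libraries 1 to 4. The groups were far apart, at 115 ± 3.90 and 25.0 ± 0.809 FPKM (SD, n = 4 in each group), with a log2 change of -2.15 and a standard error of 0.033 (limma, adjusted p = 3.0e-13). It was the 37th largest fall of all 11845 tested genes, and among the guidance genes it went from rank 2 to rank 12 by level. Ntn4 lies on chromosome 10 from 93641049 to 93745972 of GRCm38. Ntn1, the classical netrin, had 95.1, 92.3, 96.2 and 95.7 FPKM untreated and 94.9, 102, 80.4 and 71.1 with cocktail. It was not called (limma, log2 change -0.14, standard error 0.088, adjusted p = 0.19). Its cocktail libraries 1 and 2 lay within or above the untreated range and libraries 3 and 4 below it. A split of the cocktail libraries was chosen after seeing these values, and so is given with no p-value. The log2 change of Ntn1 was -0.32 without cocktail libraries 1 and 2 and 0.052 without 3 and 4. It was called without cocktail library 2 alone (limma, -0.22, adjusted p = 0.024).

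Ntng2, a netrin-G held on the membrane by a lipid anchor, moved against Ntn4. Its libraries had 16.6, 17.9, 16.8 and 15.9 FPKM untreated and 55.3, 53.5, 53.3 and 55.0 with cocktail, a 3.23-fold rise with no overlap (limma, log2 change 1.63, standard error 0.036, adjusted p = 4.1e-12). Of the exonic bases of Ntng2, 14.0% are shared with the same-strand transcript 6530402F18Rik, so that fragments of these bases could belong to either. Its paralog Ntng1 fell from 1.43 ± 0.122 to 0.749 ± 0.149 FPKM (SD, n = 4; limma, adjusted p = 9.4e-05). In these values the members of the netrin-G pair changed in opposite directions, and Ntng2 was the more abundant by far in both groups. Ntng1 reached 1 FPKM in untreated libraries only, so its fall is partly a condition of its being tested. Ntn3 stood at 4.24 ± 0.140 and 3.78 ± 0.301 FPKM (SD, n = 4; limma, log2 change -0.14, adjusted p = 0.039). The groups of Ntn3 overlapped, and it did not pass when untreated library 1 (adjusted p = 0.088), 3 (0.081) or 4 (0.072) was dropped or when cocktail library 1 (0.053), 3 (0.11) or 4 (0.088) was. Its call was also lost without the filter (limma, adjusted p = 0.061), under median-ratio scaling (log2 change -0.075, adjusted p = 0.24) and under quantile normalization (log2 change -0.024, adjusted p = 0.7). Ntn5 was under the filter.

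Neither of the tested Unc5 receptors was called. Unc5b, a receptor of Ntn1 that mediates repulsion, had 16.4, 15.7, 18.8 and 19.0 FPKM untreated and 16.8, 16.3, 15.0 and 13.4 with cocktail. The groups overlapped and it was not called (limma, log2 change -0.18, within 2 standard errors from -0.33 to -0.02, adjusted p = 0.059). It was called lower without untreated library 2 (limma, adjusted p = 0.025), cocktail library 1 (0.03) or cocktail library 2 (0.048), and with voom on the fragments of all 8 libraries (0.023). Unc5c, of the same receptor class, had 2.38, 2.25, 2.65 and 2.85 FPKM untreated and 2.66, 2.78, 2.84 and 3.18 with cocktail (limma, log2 change 0.13, adjusted p = 0.1). The groups of Unc5c overlapped too, and it was called higher without untreated library 4 (limma, adjusted p = 0.038), after median-ratio rescaling (0.024), after quantile normalization (log2 change 0.27, adjusted p = 0.0028) and with voom (0.046). Dcc, the attractive receptor, was under the filter, with 93 fragments in the untreated libraries together and 12 in the cocktail libraries (limma without the filter, adjusted p = 1.4e-04). Unc5a and Unc5d were also under the filter, and Unc5d was called higher without it (117 and 173 fragments, limma, adjusted p = 0.014). Unc50, which the symbol rule also took and which is no netrin receptor, had 27.6, 27.9, 26.5 and 26.5 FPKM untreated and 27.0, 26.6, 26.6 and 24.5 with cocktail (limma, adjusted p = 0.23). Its groups overlapped. Unc5cl was above 0 in 1 library only.

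**Figure D2:**
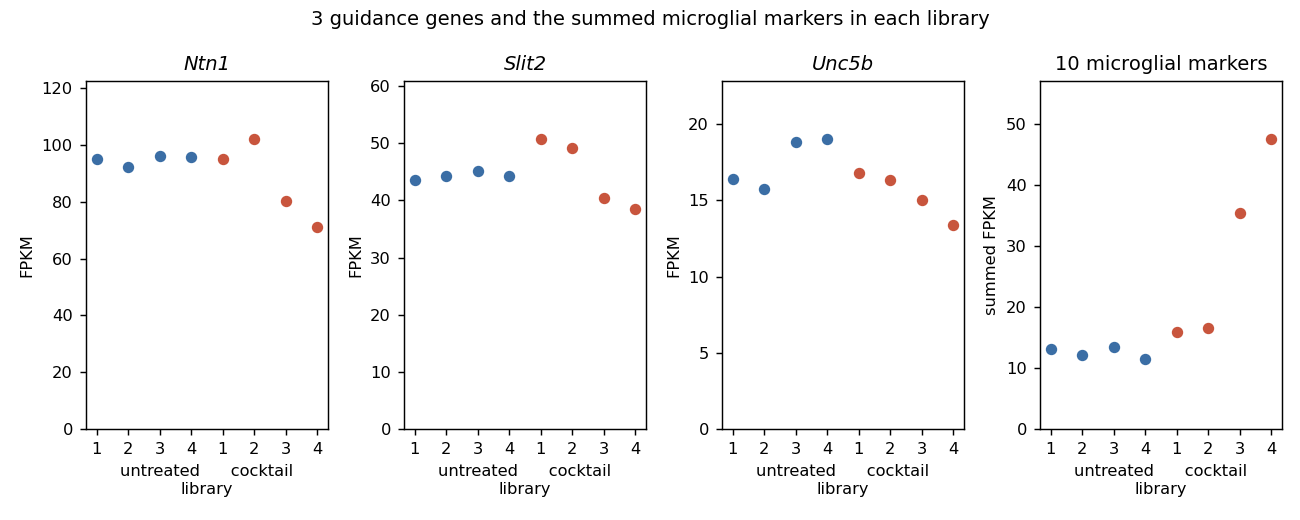
FPKM of Ntn1, Slit2 and Unc5b and the summed FPKM of 10 microglial markers in each library, with blue for untreated and red for cocktail. Cocktail libraries 3 and 4 are the lowest for Ntn1, Slit2 and Unc5b, and the highest, at 35.4 and 47.5, for the markers. The 3 genes were chosen with the values known, and not every guidance gene shows this order. Nrp2 was highest in cocktail libraries 3 and 4, and Ntn4 had 26.2, 24.6, 25.0 and 24.4 FPKM in cocktail libraries 1 to 4.

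Among plexins, the receptors of semaphorins, Plxnd1 stood alone in size. Plxnd1, best known from blood vessels, had 15.4, 13.6, 15.1 and 14.9 FPKM untreated and 88.4, 91.9, 88.9 and 86.1 with cocktail. Every cocktail library lay above every untreated one, at 14.7 ± 0.811 and 88.8 ± 2.36 FPKM (SD, n = 4), with a log2 change of 2.51 and a standard error of 0.039 (limma, adjusted p = 3.0e-13). This was the 70th largest rise of all tested genes, and it took Plxnd1 from rank 19 to rank 2 among the guidance genes by level. Plxnd1 lies on chromosome 6 from 115954811 to 115995339. The endothelial markers Pecam1, Cdh5, Flt1, Tek, Emcn, Vwf and Cldn5 were all under 1 FPKM in every library. Kdr, the other marker of that list, stood at 3.99 ± 0.120 FPKM untreated and 0.616 ± 0.0686 with cocktail (SD, n = 4). The part of endothelial cells in the rise of Plxnd1 was not tested.

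Plxnb2, the most abundant guidance gene in both groups, had 160, 158, 158 and 163 FPKM untreated and 144, 140, 129 and 128 with cocktail. It fell without overlap by 0.24 on the log2 scale (limma, adjusted p = 1.1e-04), and cocktail libraries 3 and 4 were its lowest. Plxnb1, a receptor of Sema4d, had 47.9, 47.4, 46.2 and 45.8 FPKM and 40.6, 41.2, 37.7 and 38.1, and fell by 0.24 as well (limma, adjusted p = 5.1e-05). These B plexins thus fell by a small and similar amount. Plxna2, which binds class 6 semaphorins, rose from 11.6 ± 0.496 to 18.7 ± 0.419 FPKM (SD, n = 4; limma, adjusted p = 1.6e-08). Plxna4, a receptor of class 3 and 6 semaphorins, went the other way, with 1.66, 1.84, 1.68 and 1.71 FPKM untreated and 0.585, 0.682, 0.747 and 0.712 with cocktail (limma, log2 change -0.70, adjusted p = 3.9e-07). Plxna3 fell from 6.07 ± 0.335 to 4.62 ± 0.221 FPKM (SD, n = 4; limma, adjusted p = 7.6e-05). The A plexins therefore split, with Plxna1 at 25.7 ± 0.626 and 24.5 ± 0.722 FPKM (SD, n = 4; limma, log2 change -0.07, within 2 standard errors from -0.14 to -0.01, adjusted p = 0.065). Plxna1 was called lower without untreated library 1 (limma, adjusted p = 0.048) and with voom on the recovered fragments (0.037). Of its exonic bases 10.7% are shared with the opposite-strand gene Gm26811. Plxnc1, the receptor of Sema7a, had 3.15, 3.17, 3.00 and 2.80 FPKM untreated and 1.36, 1.74, 1.54 and 1.36 with cocktail, a 2.02-fold fall (limma, adjusted p = 1.1e-06). Plxnb3 was under the filter and was called lower without it (161 and 44 fragments, limma, adjusted p = 4.7e-04).

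Both neuropilins rose. Nrp1, a co-receptor of class 3 semaphorins and of vascular endothelial growth factor, had 11.4, 11.4, 12.2 and 12.7 FPKM untreated and 19.4, 19.6, 20.9 and 19.0 with cocktail (limma, log2 change 0.68, standard error 0.043, adjusted p = 4.1e-08). Nrp2, the co-receptor preferred by Sema3f, had 0.850, 0.924, 1.03 and 0.865 FPKM untreated and 2.52, 2.16, 2.93 and 3.34 with cocktail, a 2.98-fold rise (limma, log2 change 0.95, standard error 0.089, adjusted p = 1.4e-06). No library of 1 group reached the other for either gene. Nrp1 stayed several times more abundant than Nrp2, and Nrp2 was highest in cocktail libraries 3 and 4.

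Semaphorins, the family with the most tested genes, had the most falls by count. Over all tested genes 41.1% were called lower and 26.6% higher, shares to be set beside the counts of every family here. Of 20 genes 15 were tested, of which 11 fell, 3 rose and 1 was not called. The family summed to 205 ± 2.99 FPKM without and 160 ± 6.64 FPKM with cocktail (SD, n = 4). Among the secreted class 3, Sema3b had 53.3, 49.5, 51.0 and 51.7 FPKM untreated and 24.0, 23.7, 23.6 and 22.9 with cocktail (limma, log2 change -1.09, standard error 0.030, adjusted p = 2.9e-11). Sema3f, whose receptor holds Nrp2, had 21.8, 21.6, 22.3 and 24.4 FPKM and 11.4, 10.8, 9.18 and 9.92 (limma, log2 change -1.06, adjusted p = 1.7e-08). Both fell 2.18-fold with no overlap. Sema3e, which can bind Plxnd1 without a neuropilin, had 1.80, 1.50, 2.09 and 2.42 FPKM untreated and 0.210, 0.256, 0.398 and 0.395 with cocktail (limma, log2 change -1.16, standard error 0.095, adjusted p = 4.3e-07). Its smallest library held 29 fragments and its largest 343, so its fold is less precise than those of the abundant genes. Sema3c was the exception of the class, with 44.9, 42.1, 44.3 and 42.8 FPKM untreated and 74.1, 71.7, 64.6 and 66.4 with cocktail (limma, log2 change 0.66, adjusted p = 5.8e-08). It became the most abundant semaphorin gene, above Sema3b, which had led in untreated cells. Sema3d was under the filter and was called lower without it (147 and 39 fragments, limma, adjusted p = 3.9e-05). Sema3a, the first described repellent of the class, stayed under the filter with 366 and 422 fragments (limma without the filter, adjusted p = 0.49), and Sema3g had 21 and 40.

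The membrane-bound class 4 was mixed. Sema4a, which signals to plexins B and D and to immune cells, had 0.472, 0.438, 0.456 and 0.429 FPKM untreated and 3.50, 3.17, 2.85 and 3.12 with cocktail (limma, log2 change 1.52, standard error 0.059, adjusted p = 5.1e-10). The ratio of its mean FPKM, 7.04, was the largest rise of the tested guidance genes, from a low level. With voom on the recovered fragments its log2 change was 2.80 (adjusted p = 2.4e-12), since adding 1 FPKM compresses low genes. Sema4c, a ligand of Plxnb2, rose from 2.17 ± 0.211 to 3.98 ± 0.290 FPKM (SD, n = 4; limma, adjusted p = 1.7e-06). Of its exonic bases 7.3% are shared with the opposite-strand gene D430040D24Rik. The library kit marks strand, but the sources used here do not say whether the counting used it. This holds for every opposite-strand gene named here. Sema4d, the main ligand of Plxnb1, fell from 5.75 ± 0.199 to 3.19 ± 0.195 FPKM (SD, n = 4; limma, adjusted p = 1.1e-07), and Sema4g from 2.86 ± 0.232 to 2.03 ± 0.144 (SD, n = 4; limma, adjusted p = 2.3e-04). Sema4b stood at 8.47 ± 0.650 and 8.87 ± 0.311 FPKM (SD, n = 4) and was not called (limma, log2 change 0.06, adjusted p = 0.29, and 0.039 after median-ratio rescaling).

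All 6 tested genes of classes 5, 6 and 7 fell. Sema5b, a transmembrane semaphorin with thrombospondin repeats, had 16.9, 17.1, 16.7 and 16.6 FPKM untreated and 6.93, 7.05, 6.13 and 6.47 with cocktail (limma, log2 change -1.22, standard error 0.043, adjusted p = 2.2e-10). Its relative Sema5a had 3.25, 3.40, 3.60 and 3.73 FPKM and 1.70, 1.83, 1.65 and 1.75 (limma, log2 change -0.72, adjusted p = 1.5e-07). The groups of both were clearly separate. Sema6d had 24.2, 25.4, 23.5 and 21.9 FPKM untreated and 14.5, 15.3, 14.1 and 13.8 with cocktail, and fell by 0.68 on the log2 scale (limma, adjusted p = 8.8e-08). Sema6a, a ligand of Plxna2 and Plxna4, fell from 12.4 ± 0.191 to 6.59 ± 0.263 FPKM (SD, n = 4; limma, adjusted p = 2.1e-09). Sema6b stood at 1.23 ± 0.154 and 0.917 ± 0.0781 FPKM (SD, n = 4). It was called lower (limma, adjusted p = 0.011), but not after quantile normalization (0.82). Nor was it called without cocktail libraries 3 and 4, a split chosen after seeing the data. Sema7a, held on the membrane by a lipid anchor, fell from 5.74 ± 0.732 to 2.87 ± 0.146 FPKM (SD, n = 4; limma, adjusted p = 8.6e-07), just short of a 2-fold change, while Plxnc1 at 2.02-fold was just past it. Sema4f and Sema6c were under the filter.

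**Figure D3:**
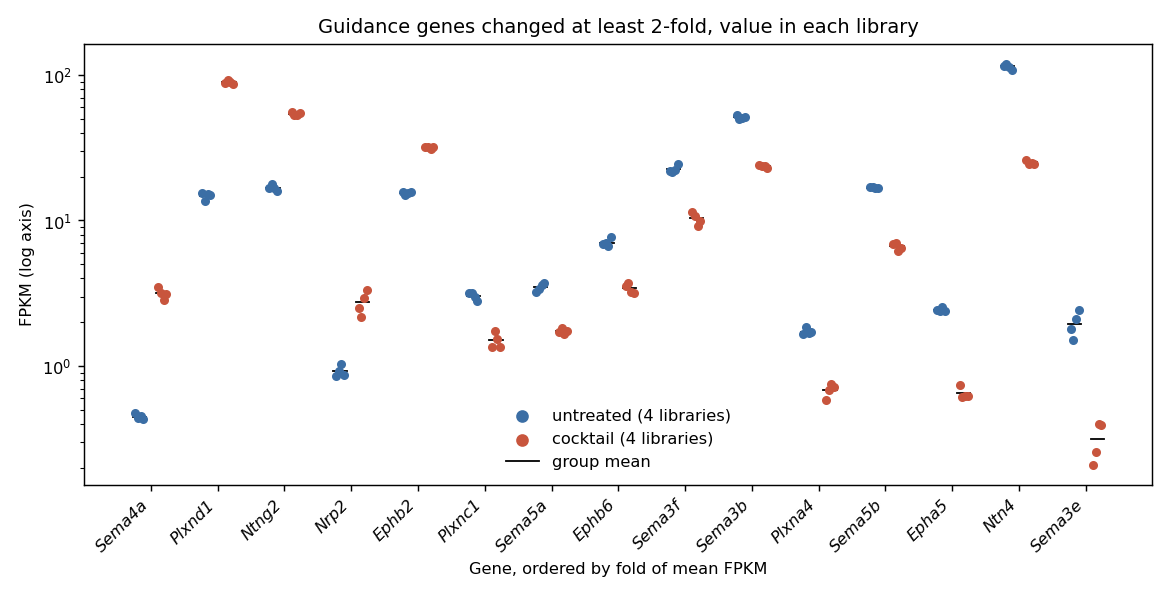
FPKM in each library, on a log axis, of the 15 guidance genes that were called and changed at least 2-fold in mean FPKM, ordered by fold. They run from Sema4a, up 7.04-fold, to Sema3e, down 6.20-fold. In each of them the 4 untreated and 4 cocktail libraries do not overlap, which the choice by call and fold largely sets. Epha5, Nrp2, Plxna4, Sema3e and Sema4a reached the filter in 1 group only.

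Of 7 tested ephrins 3 rose, 2 fell and 2 were not called. Efnb1, a transmembrane ephrin, had 21.9, 22.1, 22.7 and 22.1 FPKM untreated and 38.3, 39.8, 39.2 and 34.4 with cocktail (limma, log2 change 0.75, standard error 0.042, adjusted p = 1.5e-08). Efnb2, the ligand of Ephb4, had 10.8, 10.7, 11.0 and 11.2 FPKM and 11.5, 12.1, 11.3 and 11.3. Its groups did not overlap but lay close together (limma, log2 change 0.07, adjusted p = 0.089), and it was called higher after median-ratio rescaling (limma, 0.14, adjusted p = 0.0044), quantile normalization (adjusted p = 0.01) and with voom (adjusted p = 0.042). Efnb3 rose from 1.23 ± 0.136 to 1.59 ± 0.137 FPKM (SD, n = 4; limma, adjusted p = 0.0099). Of the lipid-anchored A ephrins, Efna1, which is known as a gene induced by tumor necrosis factor α in endothelium, rose from 3.77 ± 0.141 to 5.43 ± 0.397 FPKM (SD, n = 4; limma, adjusted p = 1.6e-05). Efna5 fell from 9.87 ± 0.283 to 6.56 ± 0.639 FPKM (SD, n = 4; limma, adjusted p = 4.9e-06). Efna4 had 10.4, 8.19, 10.8 and 9.96 FPKM untreated and 10.3, 9.34, 8.86 and 9.20 with cocktail, with overlapping groups and no call (limma, adjusted p = 0.55). Of its exonic bases 10.5% are shared with the opposite-strand gene 4731419I09Rik, and 14.1% of those of Efna3 with Gm15998. Efna3 stood at 2.09 ± 0.218 and 1.67 ± 0.280 FPKM (SD, n = 4) with overlapping groups. It was called lower (limma, adjusted p = 0.038), but not when untreated library 1 (0.072), 3 (0.079) or 4 (0.1) or cocktail library 3 (0.11) or 4 (0.086) was dropped. Nor was it called without the filter (limma, adjusted p = 0.065), under median-ratio scaling (log2 change -0.16, adjusted p = 0.11), under quantile normalization (log2 change -0.056, adjusted p = 0.57) or with voom (adjusted p = 0.05). Efna2 was under the filter.

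Eph receptors changed in both directions, 3 of 8 tested upward and 5 downward, and 6 of the 14 were under the filter. Ephb2, a receptor of the B ephrins, had 15.7, 15.0, 15.4 and 15.8 FPKM untreated and 31.9, 31.9, 31.0 and 32.2 with cocktail, a 2.05-fold rise with a standard error of 0.029 on the log2 scale (limma, log2 change 0.99, adjusted p = 4.7e-11). Ephb4, known from veins, had 14.2, 14.0, 14.3 and 15.0 FPKM and 22.0, 23.0, 21.9 and 20.7 (limma, log2 change 0.58, adjusted p = 5.1e-08). Ephb2 became the most abundant Eph receptor gene, ahead of Epha4, which binds ephrins of both subclasses. Epha4 had 23.3, 23.6, 23.9 and 23.4 FPKM untreated and 26.6, 25.8, 27.7 and 25.7 with cocktail, a small rise without overlap (limma, log2 change 0.16, adjusted p = 6.4e-04). Epha5, a receptor of Efna5, had the largest fold fall of the tested receptor genes, with 2.42, 2.38, 2.54 and 2.39 FPKM untreated and 0.746, 0.609, 0.626 and 0.617 with cocktail (limma, log2 change -1.06, standard error 0.054, adjusted p = 5.5e-09). Ephb6, whose kinase domain is inactive, had 6.84, 6.98, 6.71 and 7.69 FPKM and 3.55, 3.72, 3.23 and 3.16 (limma, log2 change -0.87, adjusted p = 5.2e-08). Both fell with no overlap between groups. Epha2, Ephb1 and Ephb3 were called lower with log2 changes of -0.39, -0.37 and -0.31 (limma, adjusted p = 0.002, 7.7e-04 and 1.9e-04). Under the filter, Epha6 had 70 fragments in the untreated libraries together and 3 in the cocktail libraries, and Epha7 had 134 and 69 (limma without the filter, adjusted p = 0.012 and 0.011). Epha1 and Epha3 had 31 and 56 and 158 and 126 fragments, Epha8 was at 0 in every library and Epha10 was above 0 in 1.

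Neither tested Slit rose, while both tested Robo receptors did. Slit2, a repellent, had 43.6, 44.3, 45.1 and 44.3 FPKM untreated and 50.7, 49.2, 40.4 and 38.5 with cocktail. Its group means were nearly equal, but cocktail libraries 1 and 2 lay above and libraries 3 and 4 below every untreated library (limma, log2 change 0.00, standard error 0.075, adjusted p = 0.97). The same split, chosen after seeing the data, is given with no p-value. By it the log2 change of Slit2 was -0.16 without cocktail libraries 1 and 2 and 0.17 without 3 and 4. The microglial markers were higher in libraries 3 and 4 than in 1 and 2, and their part in this split was not tested. Slit3 had 19.8, 19.1, 22.4 and 24.2 FPKM untreated and 15.4, 15.6, 14.1 and 14.5 with cocktail, a fall without overlap (limma, log2 change -0.49, adjusted p = 3.5e-05). Slit1 was under the filter, with 0.112, 0.186, 0.127 and 0.0743 FPKM untreated and 0.0509, 0.0925, 0.0997 and 0.0441 with cocktail, and its groups overlapped. Robo1, a Slit receptor, had 3.74, 3.86, 3.59 and 3.69 FPKM untreated and 6.14, 6.43, 6.06 and 6.08 with cocktail (limma, log2 change 0.60, adjusted p = 9.4e-08). Robo2, of the same function, had 4.51, 4.36, 4.13 and 3.91 FPKM and 8.49, 8.74, 7.88 and 8.26 (limma, log2 change 0.84, standard error 0.049, adjusted p = 2.0e-08). Both rose without overlap, Robo2 by 1.97-fold. Robo3, which acts in commissural neurons, was under the filter at 0.182, 0.0879, 0.0611 and 0.0669 FPKM untreated and 0.244, 0.167, 0.120 and 0.159 with cocktail, and the groups overlapped. Robo4, of the endothelium, had 4 and 5 fragments. In all 21 guidance genes were under the filter. Without it 6 of them were called, 5 lower (Dcc, Epha6, Epha7, Plxnb3 and Sema3d) and 1 higher (Unc5d). Their log2 changes in that fit were small, at -0.13, -0.05, -0.13, -0.26 and -0.26 in this order, and 0.09 for Unc5d. The called share of all genes under the filter was not worked out, so 6 of 21 cannot be read as many or few.

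For 14 ligand and receptor pairs named above the values were set side by side, a choice made with the values known. In 6 pairs both genes were called in the same direction, in 4 in opposite directions, and in 4 at least 1 gene was not called. Of all tested genes 67.7% were called. No share was worked out for other pairs of genes, so these counts cannot be read as many or few. Of the paired genes Epha5, Nrp2, Plxna4, Sema3e and Sema4a reached the filter in 1 group only, so their calls are partly a condition of being tested. The pairs leave out other genes, among them Sema3c and Nrp1, which rose, and Sema3b, which fell. Sema3e, at 1.95 FPKM untreated and past the filter in that group only, fell 6.20-fold while its receptor gene Plxnd1 rose 6.03-fold. Sema4c rose while Plxnb2 fell, Sema3f fell while Nrp2 rose, and Sema6a fell while Plxna2 rose. Slit2 was near its untreated mean while Robo1 and Robo2 rose, Efnb2 was not called while Ephb4 rose, and neither Ntn1 nor Unc5b was called. Sema7a and Plxnc1 fell together, as did Efna5 and Epha5, Sema4d and Plxnb1, and Sema6a and Plxna4. Efnb1 and Ephb2 rose together, as did Sema4a and Plxnd1. Over the 37 ligand genes the summed FPKM was 563 ± 5.05 without and 465 ± 30.3 with cocktail (SD, n = 4). Without Ntn4 it was 448 ± 7.48 and 440 ± 29.9. Over the 34 receptor genes it was 389 ± 6.38 and 464 ± 14.4 FPKM, and without Plxnd1 it was 374 ± 6.00 and 375 ± 12.7. In both remaining sums cocktail libraries 1 and 2 lay above every untreated library and libraries 3 and 4 below. Without Ntn4 the ligand sum was 438 to 454 FPKM untreated and 464, 467, 419 and 410 in cocktail libraries 1 to 4. Without Plxnd1 the receptor sum was 368 to 382 FPKM untreated and 387, 385, 367 and 362 with cocktail. Rises and falls of single genes also offset each other within these sums. Among ligands were Ntng2 and Sema3c upward and Sema3b downward, and among receptors Ephb2 upward and Plxnb2 downward.

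**Figure D4:**
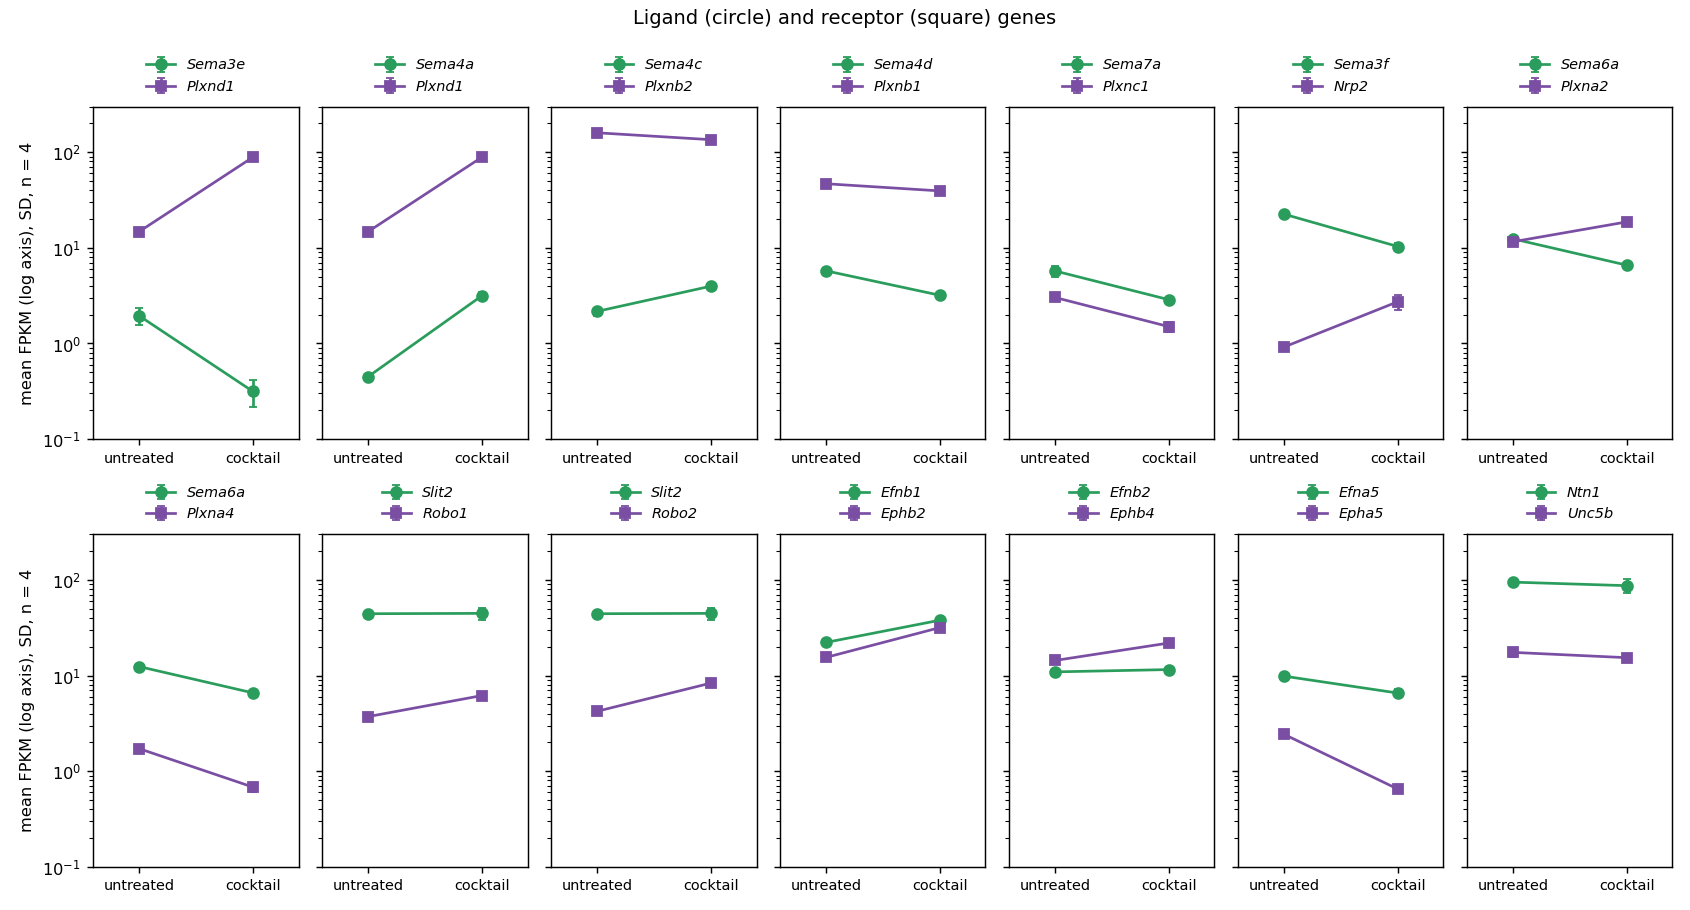
Mean FPKM on a log axis, with SD over 4 libraries, of the ligand gene (circles) and the receptor gene (squares) of 14 pairs in untreated and cocktail libraries. Sema3e falls to 0.315 while Plxnd1 rises to 88.8. In all 6 pairs were called in the same direction, 4 in opposite directions and 4 with at least 1 gene not called. Epha5, Nrp2, Plxna4, Sema3e and Sema4a reached the filter in 1 group only.

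Genes that work beside these families were examined as 3 lists, to be read against the 26.6% of all tested genes called higher and the 41.1% called lower. Of 45 tested signalling genes inside the cell 14 rose, 22 fell and 9 were not called, with a median log2 change of -0.09. The 3 genes of this list named next all fell and do not show its rises. Srgap1, an effector of Robo receptors, fell from 5.31 ± 0.217 to 1.34 ± 0.0351 FPKM (SD, n = 4; limma, adjusted p = 1.2e-10), and its relative Srgap3 from 34.7 ± 1.80 to 17.0 ± 0.314 (SD, n = 4; limma, adjusted p = 4.8e-10). Dpysl5, of the collapsin response mediator family, fell from 23.0 ± 0.685 to 8.37 ± 0.246 FPKM (SD, n = 4; limma, adjusted p = 1.8e-11). Of 28 tested other cues and receptors 6 rose and 19 fell, with a median of -0.32. The adhesion molecule gene Chl1 rose from 6.82 ± 0.451 to 74.0 ± 7.96 FPKM (SD, n = 4; limma, adjusted p = 3.0e-12). The morphogen gene Shh fell from 11.1 ± 1.24 to 1.48 ± 0.647 FPKM (SD, n = 4; limma, adjusted p = 6.5e-08), Islr2 from 5.56 to 0.651 and Kdr, a receptor of vascular endothelial growth factor, from 3.99 to 0.616. Of 11 proteases that shed or process guidance proteins 5 rose and 4 fell, with a median of 0.07. Mmp9 rose from 0.183 to 5.20 FPKM, Mmp14 from 86.2 ± 1.90 to 164 ± 1.89 (SD, n = 4; limma, adjusted p = 2.5e-11) and Pcsk5 from 1.48 to 3.03, while Adam9 fell from 88.6 to 52.2.

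Separate cultures or animals are not named in the labels, so every p-value measures a spread between libraries that may be technical. The untreated and cocktail ranges did not overlap for 42 of the 52 tested guidance genes, 80.8%, and for 62.7% of all tested genes.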

How the data were processed

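The authors deposited FPKM values per gene for 8 libraries, 4 untreated and 4 cocktail. Per the labels' protocols, TRIzol was used for the RNA and a kit that marks strand for the libraries. DESeq and the build mm10 are named in the submitters' processing notes, and the sources used here give no aligner or counting program. Groups and replicate numbers came from the sample titles, because the treatment labels of 3 cocktail libraries spell C1q with other digits. Gene positions are those of NCBI's GRCm38.p6, the assembly that mm10 names, in which all 73 guidance genes were found by NCBI gene number.

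Values were tested as log2(FPKM + 1) in limma 3.58.1 under R 4.3.3, with its trend of variance on mean. A gene entered if 4 or more libraries reached 1 FPKM, and p-values were adjusted by Benjamini-Hochberg over all 11845. Fold changes on this scale are compressed at low FPKM. Within a gene the FPKM of the libraries stood in ratios of whole numbers (relative tolerance 1e-11), which gave whole fragments for 16557 genes and the library totals. Limma voom was fitted to these fragments. The count tools were not used, since FPKM is the deposited unit. A count of 0 allows up to 3 fragments, 0.0727 to 0.0781 FPKM at 2 kb, which covers counting error only. Replicate pairs differed by 2.11 to 6.79 in chi-square per gene over genes with 20 or more fragments, above the value of 1 that sampling noise gives. The scripts were tested on simulated data.

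Values of every library are given for Ntn4, for the 3 most abundant genes of each family, and for called genes with at least a 2-fold ratio of means and at least 1 FPKM in the higher group. Of each list up to 4 called genes with the largest log2 change are named, of which 1 is not reported here. Members, lists and rules were chosen with earlier results of these data known.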

Additional observations from a re-analysis of the deposited data

Results flagged for a closer look

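In groups of 4 libraries, 3 of 104 groups of tested guidance genes held a library far from the other three, and chance alone flags about 1 in 20. Epha5 in cocktail library 1 stood at 0.746 FPKM, against 0.609 to 0.626 in the other cocktail libraries. Sema6b in cocktail library 1 stood at 1.03 FPKM, against 0.874 to 0.885. Unc50 in cocktail library 4 stood at 24.5 FPKM, against 26.6 to 27.0.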

How the results depend on the processing

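Of the 43 called guidance genes, 40 kept their direction and call in every one of the 20 alternatives in which they were tested, and Efna3, Ntn3 and Sema6b did not. With a mean of at least 5 FPKM required, fewer genes were tested, and 10 guidance genes were called higher and 14 lower, with 3 rises among the proteases. Leaving out 1 library in turn gave 16 to 17 guidance genes higher and 25 to 29 lower. Without cocktail libraries 1 and 2 the counts were 16 and 31, and without 3 and 4 they were 17 and 24, both chosen after seeing the data. None of these counts is set here against the share of all genes called under the same setting. Directions reversed in genes that the test over all 8 libraries did not call. Under median-ratio scaling they were Efna4 (0.018), Plxna1 (0.0025) and Unc50 (0.023), and under quantile normalization Efna4 (0.00016). Slit2 reversed without untreated library 1 (-0.0047), cocktail library 1 (-0.059), cocktail library 2 (-0.045) or cocktail libraries 1 and 2 (-0.16). Without cocktail libraries 3 and 4 they were Efna4 (0.0023) and Ntn1 (0.052). Over single libraries left out, Slit2 ranged from -0.059 to 0.069. The cause was not tested. With a replicate block 16 guidance genes were called higher and 25 lower, and Efna3 (adjusted p = 0.058) and Ntn3 (0.067) lost their calls. Same-numbered libraries had deviations correlated at -0.044, 0.078, 0.086 and -0.007, so the numbers were not taken as pairs. The largest value of the genes under the filter was 1.07 FPKM. Few fragments limit some of them, such as Robo4 with 4 untreated and 5 cocktail fragments. Others hold more, such as Sema3a with 366 and 422.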
